A study of Mus musculus with 6 samples.

Results

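The 37 genes described here are the enzymes of glycolysis with their isoenzymes, lactate dehydrogenases, glucose and lactate transporters and pyruvate regulators (26 genes), and genes of oxygen sensing and the hypoxia response (11 genes). They were taken by symbol from the 35688 gene rows of the table. The highest-mean row stood for Aldoa, the only symbol among them with more than 1 row. RNA was measured by poly(A)-selected RNA sequencing in m1102, an epithelial line from the mouse ovarian surface, the layer that covers the ovary. The line was either untreated (3 libraries) or given 10 ng/mL TGFB1, a cytokine known for inducing matrix genes, for 4 days (3 libraries). A day is recorded for the treated libraries only, so equal time in culture is not shown. All were grown in the same serum-containing medium with EGF, and no oxygen level in culture is stated in the labels. The labels do not say that the libraries came from separate cultures. P-values therefore set the group difference against the variation among libraries of a group, and that variation may be only technical.

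Glycolysis breaks glucose down to pyruvate in a chain of enzymes, and for several steps the cell can choose between isoenzymes encoded by different genes. Pyruvate is then either turned into lactate, which leaves the cell through monocarboxylate transporters, or enters the mitochondrion and is oxidised by pyruvate dehydrogenase. Hypoxia-inducible factor (HIF) is a transcription factor whose alpha subunit is hydroxylated in the presence of oxygen by the EGLN enzymes and then marked for destruction by VHL. Among its known targets are most glycolytic enzymes, the glucose transporter gene Slc2a1, the kinase gene Pdk1 and the stress genes Bnip3, Ndrg1, Ddit4, Ankrd37 and Car9.

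Values are abundances on the TPM scale as deposited, which are per transcript length, so levels can be compared between genes. Read depth is unknown. Over all genes the deposited totals lay between 983434 and 1026702. Of the ovarian surface epithelium markers, 9 of 12 averaged 1 TPM or more, and their summed level was 2573 to 2592 TPM untreated and 1477 to 1941 TPM with TGFB1. Lhx9 and Lgr5 were below 0.1 TPM in both groups, and Krt19 was at 1.65 and 0.246 TPM. Among markers of other cell types, the leukocyte gene Ptprc (0.0739 and 0.0447 TPM) and the endothelial gene Cdh5 (0.0433 and 0.258 TPM) were near 0. The granulosa markers Foxl2 (18.5 and 22.7 TPM), Amhr2 (22.9 and 3.75 TPM) and Inha (16.9 and 9.83 TPM) and the germ cell marker Ddx4 (19.2 and 7.61 TPM) were not. Fshr, Lhcgr, Dazl and Figla were listed at 0 in every library. The summed leukocyte list, nearly all of it the lysosomal gene Cd68, went from between 18.9 and 26.4 TPM to between 7.79 and 10.2 TPM. The theca and steroidogenic list, mostly Star, went from between 282 and 328 TPM to between 79.8 and 183 TPM. The granulosa list was at 59.4 to 70.3 TPM and then 40.1 to 46.4 TPM, with Foxl2 called higher (log2 fold change 0.28, adjusted p = 0.0265) and Amhr2 and Inha lower (-2.55 and -0.75, adjusted p = 0.0121 and 0.0152). The germ cell list, nearly all Ddx4, was at 10.4 to 24.2 TPM and then 6.91 to 9.23 TPM, and the endothelial list at 1.14 to 1.28 TPM and then 1.87 to 2.38 TPM. Their part in the results below was not tested. In such bulk samples fewer cells of a type and less RNA per cell cannot be told apart.

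After TGFB1 the hexokinase gene Hk1 rose 3.34-fold while its isoenzyme Hk2 fell by 37.6%. The lactate transporter gene Slc16a1 fell by 68.1%, the lactate dehydrogenase gene Ldhb fell by 56.2% and Ldha fell by 19.0%, Ndrg1 fell by 50.1%, whereas the stress gene Ddit4 rose 1.76-fold. The glucose transporter gene Slc2a1 and the HIF targets Pdk1, Car9 and Ero1l were not called. Of the 37 genes, 34 averaged 1 TPM or more across the 6 libraries and were tested with limma (adjusted p under 0.05, adjusted over all tested genes). Of these, 4 were called higher and 10 fell (41.2% called, against 30.4% over all tested genes). Egln3, among the 4, passed the filter on low values only through the treated libraries.

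Over all 12257 tested genes 30.4% were called, 15.8% higher and 14.6% lower. Of the glycolysis genes, 2 of 24 tested rose and 8 fell, with a median log2 fold change of -0.26, against 0.02 over all tested genes. Of the hypoxia genes, 2 of 10 tested were called higher (Ddit4 and Egln3) and 2 fell, with a median of -0.02. The untreated and treated libraries did not overlap for 23 of the 34, against 49.8% of all tested genes. TGFB1 replicate 1 lay farthest from the untreated libraries for 9 of the 14 called genes, and without it 13 of the 14 were still called, Egln3 being lost. Without control replicate 3, 5 glycolysis genes fell. Leaving out any of the 6 libraries left 1 hypoxia gene called higher, and leaving out any control or TGFB1 replicate 2 left 1 called lower. Over all genes 52% of calls were higher. After rescaling the libraries without mitochondrially encoded and the 20 most abundant genes this share was 62.7%, and 4 glycolysis genes were then higher and 7 lower.

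**Figure D1:**
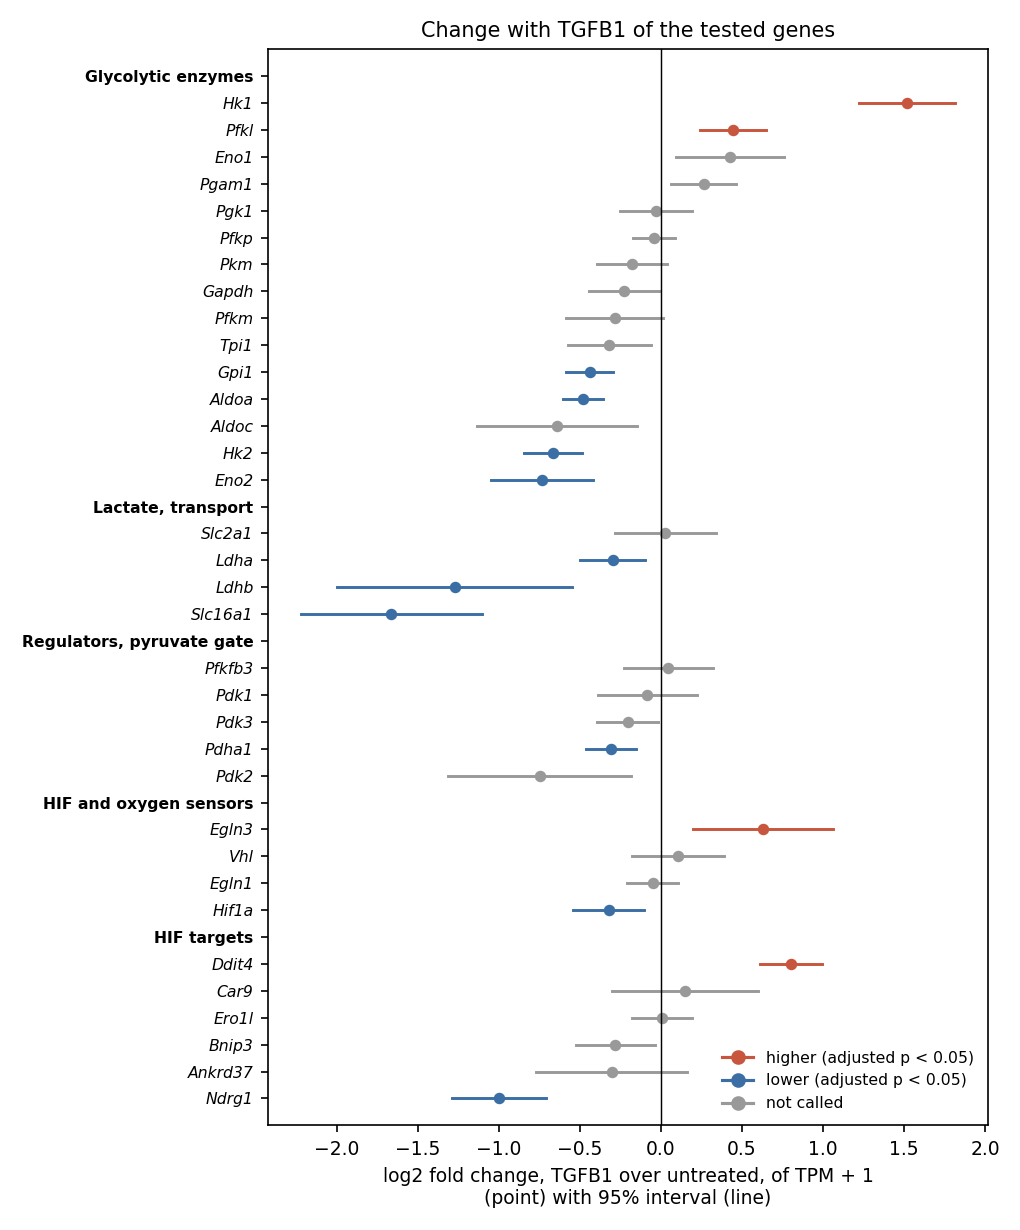
Log2 fold change (x axis, TGFB1 over untreated, of TPM + 1) of the 34 tested genes, grouped by role, with the 95% interval from limma as a line and coloured by call. The changes run from 1.52 for Hk1 to -1.66 for Slc16a1, and Slc2a1, Pfkfb3 and Ero1l sit at 0.03, 0.04 and 0.01.

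Because glycolytic genes are known HIF targets, the letters ACGTG and GCGTG, the core bound by HIF, were searched on both strands of RefSeq promoters (GRCm38.p6, 250 bases before to 50 after each start). The palindrome CACGTG holds the letters on both strands and counts as 2 matches. Promoters were found for 35 of the 37 genes, Ero1l under its newer symbol Ero1a. Epas1 and Ndrg1 were not matched. The letters stood in 39 of 49 promoters of these genes (79.6%) and in 43.8% of all 32851 promoters. They contain CG, and the promoters of these genes hold a median of 21 CG pairs against 7 over all promoters. Among all promoters with 15 to 24 CG pairs 67.2% hold the letters, and among those with 25 to 60, 75.2%. By call, the letters stood before 4 of 4 genes called higher, 7 of 9 that fell and 18 of 20 that were not called. The 5 stretches below are shown because the same letters precede genes that fell (Slc16a1, Ldha, Hk2), rose (Ddit4) or were not called (Bnip3). Each lies before the RefSeq start and outside annotated exons, reads 5′ to 3′ along the gene, and has the letters in capitals.
Slc16a1, chr3:104638439-104638559, plus strand: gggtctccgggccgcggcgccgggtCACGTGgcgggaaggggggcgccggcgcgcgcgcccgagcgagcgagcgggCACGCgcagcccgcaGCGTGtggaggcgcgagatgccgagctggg
Ldha, chr7:46845634-46845799, plus strand: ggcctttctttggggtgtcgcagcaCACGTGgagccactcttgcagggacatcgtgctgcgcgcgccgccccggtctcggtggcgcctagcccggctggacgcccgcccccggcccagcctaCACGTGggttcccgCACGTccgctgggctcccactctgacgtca
Hk2, chr6:82774477-82774704, minus strand: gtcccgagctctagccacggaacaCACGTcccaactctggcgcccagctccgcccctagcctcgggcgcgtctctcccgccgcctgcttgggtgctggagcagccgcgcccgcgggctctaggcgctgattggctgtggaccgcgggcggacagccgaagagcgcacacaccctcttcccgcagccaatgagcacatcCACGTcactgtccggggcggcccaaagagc
Ddit4, chr10:59951856-59951982, minus strand: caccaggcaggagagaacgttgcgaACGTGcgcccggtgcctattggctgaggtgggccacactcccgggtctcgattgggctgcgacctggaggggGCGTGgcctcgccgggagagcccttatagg
Bnip3, chr7:138909520-138909648, minus strand: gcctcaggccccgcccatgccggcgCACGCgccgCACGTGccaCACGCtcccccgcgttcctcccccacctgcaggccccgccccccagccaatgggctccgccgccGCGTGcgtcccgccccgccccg

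The first step of glycolysis, the phosphorylation of glucose, is carried by hexokinases. Hk1, the widely expressed form, was at 4.46, 3.74 and 3.98 TPM untreated and at 16.0, 12.1 and 12.6 TPM treated (log2 fold change 1.52, SE 0.125, adjusted p = 0.000591). Hk2, the form known as inducible by HIF, was at 43.4, 44.7 and 42.6 TPM untreated and at 29.8, 26.2 and 25.5 TPM with TGFB1 (log2 fold change -0.66, SE 0.0760, adjusted p = 0.00177). Every treated library was above every untreated one for Hk1 and below for Hk2. Hk2 made up 91.5% ± 0.803 of the Hk1 and Hk2 sum in untreated cells (SD, n = 3) and 66.8% ± 1.68 in treated cells (n = 3; exact permutation test, two-sided, p = 0.1, the smallest p that 3 against 3 allows). The sum of both was 47.6 ± 0.939 TPM and then 40.8 ± 4.41 TPM (SD, n = 3 each), and Hk2 was the more abundant in all 6 libraries. Hk1 lies on chromosome 10 at 62268855 to 62379908 and Hk2 on chromosome 6 at 82725025 to 82774454, both on the minus strand (GRCm38, GENCODE M21).

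The next steps differed by gene. Gpi1, which interconverts glucose and fructose phosphates, fell by 26.4%, from 696, 622 and 669 TPM to 471, 487 and 505 TPM (log2 fold change -0.44, adjusted p = 0.00334). Phosphofructokinase, the main control point of the pathway, has liver, muscle and platelet forms. The liver form Pfkl rose from 70.2, 57.6 and 63.3 TPM to 81.3, 88.7 and 90.4 TPM (log2 fold change 0.44, adjusted p = 0.0108). The muscle form Pfkm was at 33.6 ± 3.31 and 27.6 ± 4.27 TPM (n = 3 each) and was not called, but was called lower with the replicate number as a block (log2 fold change -0.29, adjusted p = 0.0472). Without TGFB1 replicate 1 its log2 fold change was -0.16 (adjusted p = 0.237). The platelet form Pfkp was at 34.0 ± 0.329 and 33.0 ± 0.503 TPM and was not called (95% interval of the log2 fold change -0.17 to 0.09). Pfkl made up 48.4% ± 3.67 of the family sum untreated and 58.9% ± 0.862 treated (n = 3 each; exact permutation p = 0.1). For Pfkm the shares were 25.7% and 18.6%, and for Pfkp 25.9% and 22.5%. Pfkfb3 and Pfkfb4 make the sugar phosphate that activates phosphofructokinase. Pfkfb3 was at 14.4 ± 1.83 and 14.9 ± 1.62 TPM and was not called (interval -0.23 to 0.32), and Pfkfb4, under the filter, was at 0.832 and 1.02 TPM.

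**Figure D2:**
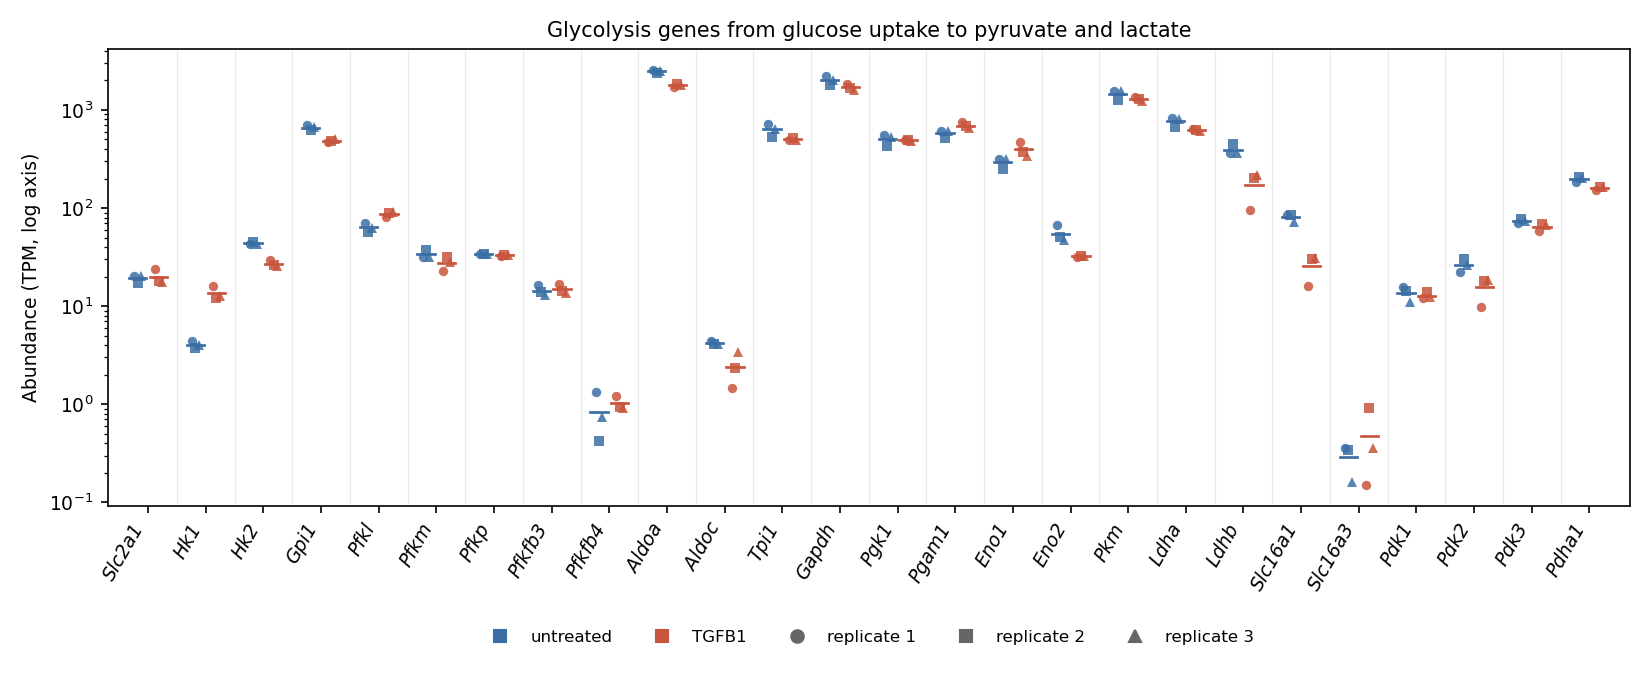
Abundance (y axis, TPM, log axis) of the 26 glycolysis genes in pathway order in each of the 3 untreated and 3 TGFB1 libraries. Marker shape is the replicate number and bars are group means. Aldoa, Gapdh and Pkm are the highest in both groups, and the treated points of Slc16a1 lie between 16.2 and 31.1 TPM, all under the untreated ones.

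Aldoa, the aldolase that splits fructose bisphosphate, was the most abundant of the 37 genes. It fell by 28.3%, from 2555, 2406 and 2498 TPM to 1709.7, 1826 and 1812 TPM (log2 fold change -0.48, SE 0.0522, adjusted p = 0.0015). Its minor isoenzyme Aldoc went from 4.18 ± 0.176 to 2.41 ± 0.948 TPM and was not called (adjusted p = 0.0558). It was called lower with a pseudocount of 5 and without TGFB1 replicate 3 (log2 fold change -0.32 and -0.84, adjusted p = 0.0454 and 0.0204). The middle enzymes Tpi1, Gapdh and Pgk1 were not called, at log2 fold changes of -0.32 (interval -0.58 to -0.06), -0.23 (-0.44 to -0.01) and -0.03 (-0.25 to 0.19). Gapdh, often used as a reference gene, was at 2009 ± 209 and 1714 ± 120.3 TPM with overlapping groups. Without control replicate 2, which had the lowest untreated value of Tpi1, Gapdh and Pkm, Tpi1 was called lower (-0.44, adjusted p = 0.0165), and so was Pkm (-0.28, adjusted p = 0.0326). With a replicate block Gapdh was called lower (-0.23, adjusted p = 0.0488).

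Of the late-step genes only Eno2 was called in the main fit, and it fell. Pgam1, the phosphoglycerate mutase, was at 579 ± 49.4 and 694 ± 49.5 TPM and missed the threshold (log2 fold change 0.26, adjusted p = 0.0538). Eno1, the ubiquitous enolase, was at 315, 249.8 and 314 TPM untreated and 469.9, 374 and 343 TPM treated, which did not overlap and also missed it (0.43, adjusted p = 0.0587). Both were called higher with a replicate block (adjusted p = 0.0473 and 0.0361) and after the rescaling described above (0.31 and 0.48, adjusted p = 0.0248 and 0.0362). Eno1 was also called without TGFB1 replicate 3 (0.52, adjusted p = 0.0472). Eno2, the enolase known from neurons and as a HIF target, fell by 41.4%, from 67.5, 50.2 and 46.8 TPM to 31.5, 32.4 and 32.5 TPM (-0.73, adjusted p = 0.0082). Eno2 made up 15.8% ± 2.48 of the Eno1 and Eno2 sum untreated and 7.64% ± 1.23 treated (n = 3 each; exact permutation p = 0.1). A further enolase gene, Eno3, is outside this sum. It was at 59.1 ± 6.25 and 50.6 ± 13.7 TPM and was not called (-0.24, adjusted p = 0.345). Pkm, which makes pyruvate, was at 1466 ± 165 and 1290.1 ± 61.0 TPM and was not called (interval -0.39 to 0.04).

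Summed over the 15 glycolytic enzymes, the untreated libraries held 9476, 8073 and 9058 TPM and the treated libraries 7807, 7579.7 and 7353 TPM (exact permutation test, two-sided, p = 0.1, n = 3 each). The sum is weighted to the most abundant genes Aldoa, Gapdh and Pkm, of which only Aldoa was called. Hk1, Pfkl, Pgam1 and Eno1, 4 of the 15, had log2 fold changes above 0. Of the 15, 2 rose, 4 fell and 9 were not called (40.0% called, against 30.4% over all tested genes). Of those 9, 5 had an unadjusted p under 0.05, against 1502 of the 8532 genes not called among all tested genes. These 5 went both ways, Pgam1 and Eno1 up and Aldoc, Tpi1 and Gapdh down.

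**Figure D3:**
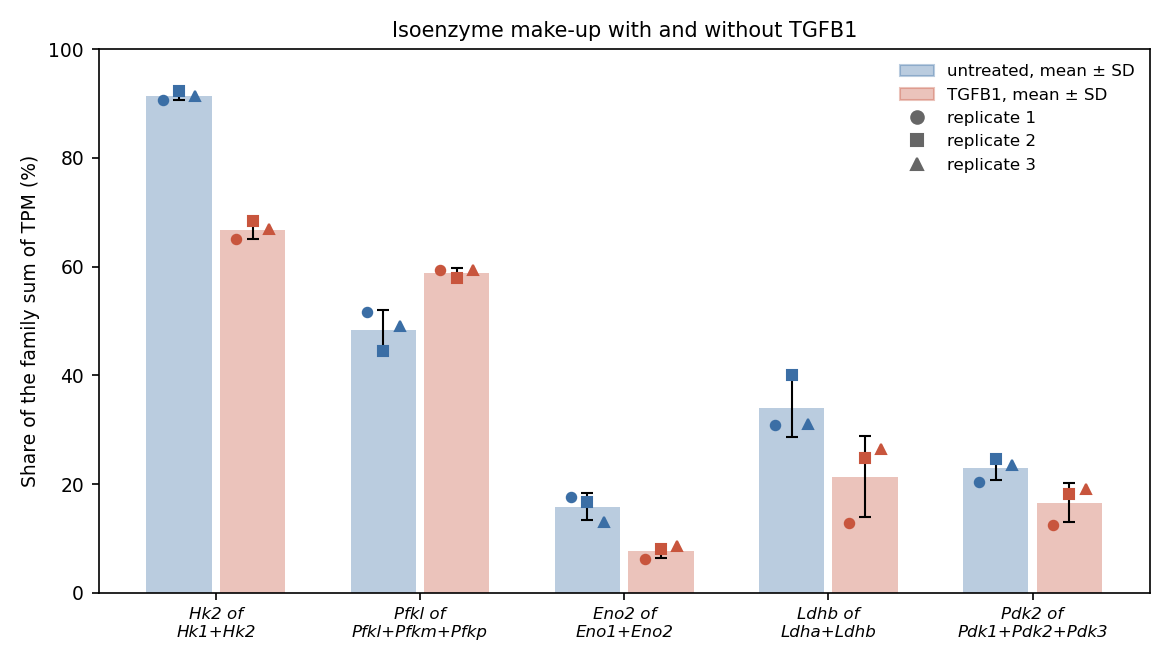
Share (y axis, percent) of the named isoenzyme in the summed TPM of the isoenzymes given on the x axis, labelled the family sum. The enolase sum leaves out Eno3. Bars are group means with SD (n = 3 each), and points are libraries with the replicate number as shape. Hk2 goes from 91.5% to 66.8% and Pfkl from 48.4% to 58.9%, and the untreated and treated points are apart for each of the 5 shares shown. Not all shares separate. The share of Aldoc in the Aldoa and Aldoc sum (0.168% and 0.134%, exact permutation p = 0.4) and that of Pdk1 in the kinase sum (p = 0.3) overlap and are not shown.

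Lactate handling held the largest falls. Slc16a1, which encodes the lactate and pyruvate transporter MCT1, was at 85.2, 84.3 and 72.8 TPM untreated and at 16.2, 30.0 and 31.1 TPM with TGFB1 (log2 fold change -1.66, SE 0.235, adjusted p = 0.00354). Treated replicate 1 was the lowest, and without it the log2 fold change was -1.37 (adjusted p = 0.000121). Its position is chromosome 3, plus strand, 104638668 to 104658462. Slc16a3, encoding MCT4, the exporter known as a HIF target, was at 0.287 ± 0.109 and 0.473 ± 0.395 TPM, under the filter, and made up 0.348% and 1.67% of the sum of both transporter genes. Slc2a1, encoding the glucose transporter GLUT1, was at 20.5, 17.0 and 20.5 TPM and at 23.7, 18.3 and 17.5 TPM, with overlapping groups (interval -0.29 to 0.34).

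Ldhb, the lactate dehydrogenase subunit of heart-type enzyme, was at 365, 450.0 and 367 TPM untreated and at 94.7, 204 and 218 TPM treated (log2 fold change -1.27, SE 0.306, adjusted p = 0.0221). All treated libraries were below all untreated ones, and treated replicate 1 was again the lowest. Without that library the log2 fold change was -0.89 (adjusted p = 0.00117). The Ldhb call was lost without control replicate 1, 2 or 3 (adjusted p = 0.0620, 0.0758 and 0.0630) and with no abundance filter (0.0636). Ldha, the muscle-type subunit and a HIF target, was at 821, 672 and 813 TPM and then 641, 619 and 607 TPM (log2 fold change -0.30, adjusted p = 0.0389). Its call was lost without control replicate 1 or 3 (adjusted p = 0.116 and 0.129), without TGFB1 replicate 2 or 3 (0.0987 and 0.1004), with no filter (0.0947) and after rescaling (0.0582). Ldhb made up 34.0% ± 5.28 of the Ldha and Ldhb sum untreated and 21.4% ± 7.42 treated (n = 3 each; exact permutation p = 0.1). The sum itself went from 1163 ± 35.2 to 795 ± 50.8 TPM.

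The entry of pyruvate into the mitochondrion is set by the pyruvate dehydrogenase complex and by the kinases that switch it off. Pdha1, the catalytic subunit, fell by 19.5%, from 185, 208 and 205 TPM to 154, 163 and 165 TPM (-0.31, adjusted p = 0.0146). Leaving out control replicate 2 or 3 ended the call (adjusted p = 0.0509 and 0.0640). None of the 3 kinases was called. Pdk1, the kinase that HIF is known to induce, was at 13.7 ± 2.35 and 12.8 ± 0.869 TPM (interval -0.39 to 0.22), and Pdk3 at 74.0 ± 3.11 and 64.2 ± 5.64 TPM (log2 fold change -0.20, and -0.13 without TGFB1 replicate 1). Pdk2 was at 22.3, 30.0 and 26.2 TPM untreated and at 9.92, 18.2 and 18.7 TPM treated, without overlap (log2 fold change -0.75, adjusted p = 0.0533). It was called lower under 6 alternatives, among them without TGFB1 replicate 1 (-0.47, adjusted p = 0.0273), without TGFB1 replicate 3 (-0.90, adjusted p = 0.0494) and with a replicate block (-0.75, adjusted p = 0.0161). Pdk2 made up 22.9% and 16.6% of the kinase sum, Pdk3 65.0% and 69.5%, and Pdk1 12.1% and 13.9% (exact permutation p = 0.1, 0.1 and 0.3).

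Of the oxygen-sensing genes, Hif1a fell, and Egln3 was called higher at an abundance near the filter. Hif1a, encoding the oxygen-regulated alpha subunit, was at 197, 164 and 159.7 TPM untreated and at 146, 136 and 132 TPM treated (log2 fold change -0.32, SE 0.0922, adjusted p = 0.0390). The call was lost without any of the 3 controls (adjusted p = 0.0700, 0.0669 and 0.0580) or TGFB1 replicate 2 or 3 (0.101 and 0.104), with no filter (0.0817) and after rescaling (0.0618). HIF alpha is known to be controlled mainly at the protein level, which RNA does not show. Epas1, encoding the other main alpha subunit, was near 0 in both groups (0.0344 and 0.0389 TPM). The oxygen-dependent hydroxylase gene Egln1 was at 52.5 ± 0.916 and 50.7 ± 3.16 TPM (interval -0.21 to 0.10) and Vhl at 31.2 ± 4.62 and 33.5 ± 2.71 TPM (interval -0.18 to 0.39), and neither was called.

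Egln3, a hydroxylase that is itself a HIF target, was at 0.354, 0.520 and 0.860 TPM untreated and at 1.48, 1.58 and 1.21 TPM treated, and was called higher (log2 fold change 0.63, adjusted p = 0.0398). Its mean just reached 1 TPM, through the treated libraries alone, so a gene this low that was tested had to be higher in them. With no filter the adjusted p was 0.0444, and with a pseudocount of 5 the log2 fold change was 0.20 (adjusted p = 0.0402). The call was lost when any of the 6 libraries was left out (adjusted p = 0.0502 to 0.116), with a pseudocount of 0.1 (1.23, adjusted p = 0.0523) and with a replicate block (adjusted p = 0.0705). With median-of-ratios scaling or a filter of 5 TPM it was not tested. Egln3 made up 1.09% of the Egln1 and Egln3 sum untreated and 2.73% treated.

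**Figure D4:**
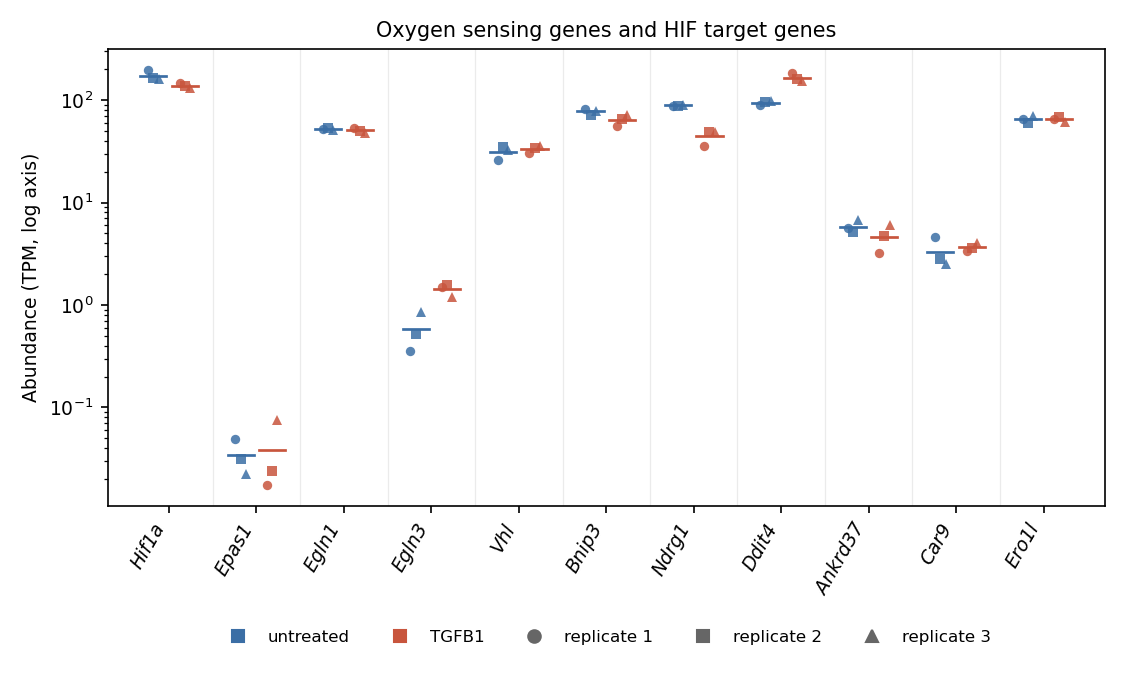
Abundance (y axis, TPM, log axis) of the 5 oxygen-sensing genes and 6 HIF target genes in each of the 6 libraries, with group means as bars. Ndrg1 lies between 35.6 and 48.7 TPM in treated libraries against 87.9 to 90.2 TPM in untreated ones, and Ddit4 is above its untreated values in all 3 treated libraries.

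Among the 6 HIF targets 1 rose, 1 fell and 4 were not called (33.3% called, against 30.4% over all tested genes). Ddit4, an inhibitor of mTOR signalling that many stresses induce, rose from 90.3, 95.9 and 97.8 TPM to 184, 160.5 and 154 TPM (log2 fold change 0.80, SE 0.0795, adjusted p = 0.00109). Ndrg1, a differentiation-related gene strongly induced by hypoxia, fell from 87.9, 88.2 and 90.2 TPM to 35.6, 48.5 and 48.7 TPM (-1.001, SE 0.123, adjusted p = 0.00225). For both genes the treated and untreated libraries did not overlap. Ndrg1 lies on chromosome 15 at 66929318 to 66969640 and Ddit4 on chromosome 10 at 59949669 to 59951834, both on the minus strand.

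Bnip3, which drives the removal of mitochondria, was at 82.6, 72.2 and 78.3 TPM and then 55.6, 64.9 and 71.4 TPM, and was not called (-0.28, adjusted p = 0.0807) except without TGFB1 replicate 3 (-0.36, adjusted p = 0.0488). Without TGFB1 replicate 1 its log2 fold change was -0.185 (adjusted p = 0.114). Ankrd37, the carbonic anhydrase gene Car9 and the oxidase gene Ero1l had overlapping groups, with intervals of -0.77 to 0.16, -0.30 to 0.60 and -0.18 to 0.19. For Ankrd37 the log2 fold change was -0.30, and it was -0.11 without TGFB1 replicate 1, -0.48 without TGFB1 replicate 3 and -0.18 with a pseudocount of 5, none of them called. Car9, among the most hypoxia-specific of these genes, was at 3.30 ± 1.12 and 3.67 ± 0.33 TPM.

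Other genes of glucose metabolism, 43 in a list written from textbook knowledge, had 29 tested members. Of these 2 rose and 9 fell (37.9% called, against 30.4% over all tested genes, 15.8% higher and 14.6% lower), with a median log2 fold change of -0.21. Leaving out any single library other than TGFB1 replicate 1 left 1 called higher. Bsg encodes basigin, the partner that carries MCT1 to the cell surface, and fell from 1055, 1221 and 1092 TPM to 591, 718 and 715 TPM (log2 fold change -0.74, adjusted p = 0.0027). Mpc1, a subunit of the mitochondrial pyruvate carrier, fell from 219.9 ± 10.2 to 143 ± 15.6 TPM (-0.62, adjusted p = 0.0038). Ldhd, a D-lactate dehydrogenase, fell from 5.20 ± 0.235 to 1.80 ± 0.477 TPM (-1.16, adjusted p = 0.00266, and -0.59 with a pseudocount of 5). Of the pentose phosphate genes, the transaldolase gene Taldo1 fell from 1834 ± 49.9 to 918 ± 208 TPM (-1.03, adjusted p = 0.00524) and the ribose phosphate isomerase gene Rpia from 19.7 ± 4.19 to 9.15 ± 1.499 TPM (-1.02, adjusted p = 0.00582). Among the other tested pentose phosphate genes of the list, Pgls was called higher (0.27, adjusted p = 0.0338). G6pdx, Pgd, Tkt and Rpe were not called (0.08, 0.07, -0.11 and -0.11). Bpgm, which makes bisphosphoglycerate, rose from 16.7 ± 2.95 to 31.6 ± 1.04 TPM (0.90, adjusted p = 0.00352). Named after their values were seen, the pyruvate dehydrogenase subunit gene Pdhb (-0.33, adjusted p = 0.0082) and the carrier gene Mpc2 (-0.23, adjusted p = 0.0467) also fell. Dlat (0.01), Dld (-0.20) and Pdhx (0.34), of the same pyruvate dehydrogenase complex, were not called, and Pdhx went up, from 22.0 to 28.1 TPM. The Mpc2 call was lost under 8 of 13 alternatives, among them without control replicate 2 or 3 and without any of the 3 TGFB1 libraries (adjusted p up to 0.139).

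Of 39 further hypoxia response genes 32 were tested. Of these 6 rose and 6 fell (37.5% called, against 30.4% over all tested genes), with a median of 0.05. Without control replicate 2 or 3, 3 were called lower. Ier3, an early response gene, rose from 227 ± 17.5 to 464 ± 118 TPM (1.001, adjusted p = 0.00615), and Angptl4, a secreted lipase inhibitor gene, from 22.0 ± 2.68 to 41.1 ± 1.83 TPM (0.88, adjusted p = 0.00161). Plod2, a collagen lysyl hydroxylase gene, rose from 101.5 ± 9.97 to 174 ± 27.5 TPM (0.77, adjusted p = 0.00552). Nrn1, the neuritin gene, fell from 89.5 ± 6.30 to 28.7 ± 12.2 TPM (-1.71, adjusted p = 0.00941). The zinc finger gene Zfp395 fell from 23.9 ± 1.23 to 14.4 ± 3.34 TPM (-0.72, adjusted p = 0.0184), which was not called without any of the 3 controls or without the filter (adjusted p reaching 0.0640). Vegfa, the angiogenic HIF target, was at 101 ± 10.6 and 104 ± 16.7 TPM and was not called. Arnt, the constitutive HIF partner subunit (-0.47, adjusted p = 0.0111), and the hydroxylase gene Egln2 (-0.33, adjusted p = 0.00693), both named after their values were seen, fell.

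**Figure D5:**
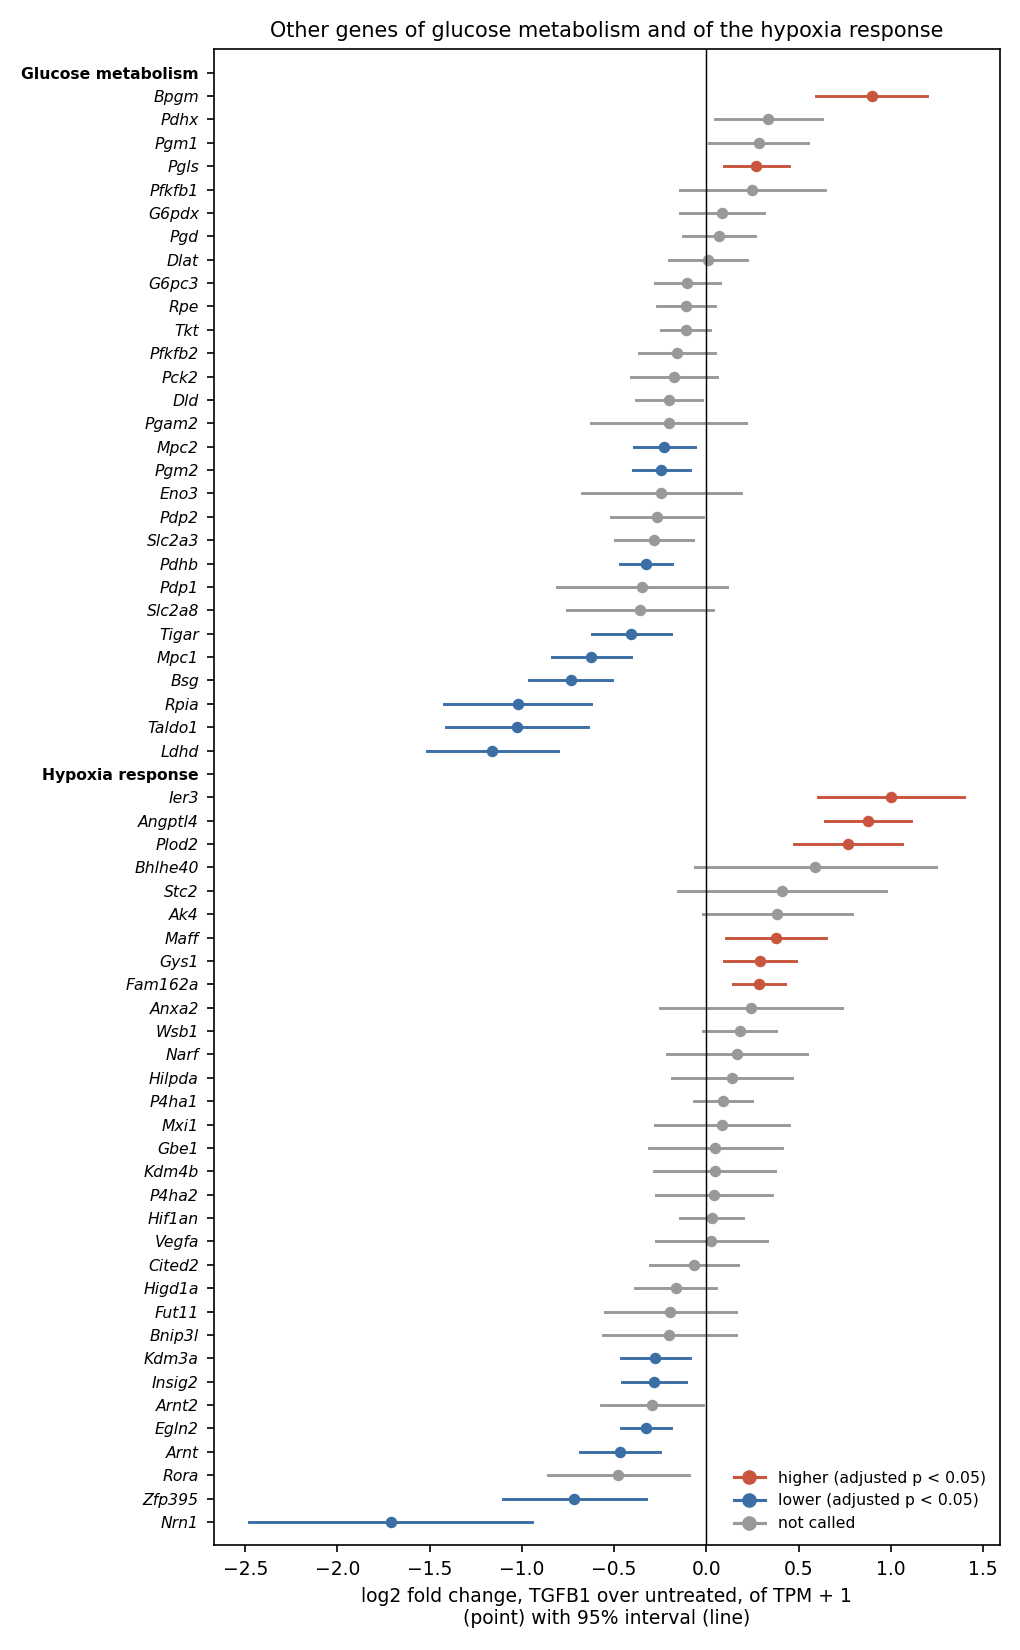
Log2 fold change (x axis, TGFB1 over untreated, of TPM + 1) with 95% interval of the 29 tested genes of glucose metabolism and 32 of the hypoxia response outside the 37, coloured by call. The highest point is Ier3 at 1.001 and the lowest Nrn1 at -1.71.

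Several of these genes share sequence with copies, so their values are uncertain. Of the 31-base stretches in their annotated transcripts, 57% of Bnip3, 54.7% of Pgk1, 41.2% of Ldhd, 37.1% of Pgam1, 34.7% of Pkm, 33% of Ldhb, 30.8% of Mpc1, 28.5% of Eno1 and 28.1% of Gapdh also occur in another gene. For the called genes Gpi1, Ldha, Aldoa and Pdha1 the share was 21.6%, 19.6%, 17% and 15.8%. For Slc16a1, Ddit4, Egln3, Pdk2 and Vhl it was 0, and for Hk1 and Hk2 it was 1.45% and 0.235%. The main partner of Ldhb, Gm5514, was at 104.5 TPM untreated and 43.5 TPM treated, and that of Eno1, Eno1b, at 207 and 278 TPM, the same directions as the genes themselves. Reads from shared stretches can count towards both, so these directions are not independent of the genes' own. Reads of Gapdh could be spread over 48 partners in the table that each hold at least 10% of its stretches, at 3211 TPM in sum untreated and 2740 TPM treated. Ldhd shares its stretches with the neighbouring gene Znrf1, which was at 54.5 and 52.9 TPM. For other genes the partners with deposited values that hold at least 10% of the stretches summed to less. Untreated and treated sums were 0 and 0 TPM for Bnip3, 0.347 and 0.312 TPM for Pkm and 0.497 and 0 TPM for Mpc1. For Pgam1 they were 9.98 and 9.04 TPM, and for Pgk1 45.5 and 31.4 TPM. The largest partners of Bnip3 (AC160336.1, 46.7% of its stretches) and Mpc1 (4930506C21Rik, 18.2%) have no deposited value. These sums leave them out, so their levels are unknown.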

How the data were processed

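Titles gave each sample its group and replicate number, and table columns were tied to them by both. Kallisto 0.44.0, sleuth 0.30.0 and GRCm38 are listed, without roles, per the submitters' processing notes. Annotation, strand use and how transcripts were summed per gene are not stated there. The values the authors deposited are a TPM-scale signal, corrected for length and depth and put on a common scale. They hold no read counts, so depth and counting error are unknown, and low abundances are the least precise.

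The 12257 genes averaging 1 TPM or more were fitted as log2(TPM + 1) with limma 3.58.1 in R 4.3.3 (lmFit, eBayes with trend). P-values are two-sided and Benjamini-Hochberg adjusted over all tested genes, with calls under 0.05. Fold changes on this scale understate those of low genes. Isoenzyme shares and sums were compared by exact permutation tests over the 6 libraries. The fit was also run on simulated data whose changes were larger than most of those called in these genes. That run does not show how well smaller changes are called. Coordinates and shared 31-base stretches are from GENCODE M21, promoters from RefSeq (Python 3.11.15).

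All 37 genes are named, and of the 2 further lists up to 6 called members with the largest change. Other members of these 2 lists were named after their values were seen. A called member of the hypoxia list is not reported here and was left out of that list's counts. The genes and lists were chosen with earlier results of these data known. Alternatives were 2 other pseudocounts, 2 other filters, 2 scalings, a replicate block and leaving out each library.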

Additional observations from a re-analysis of the deposited data

How the results depend on the processing

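Leaving out each library in turn gave 1113 to 2024 higher and 917 to 1926 lower genes among all tested, 5 to 9 glycolysis genes lower, 1 hypoxia gene higher in each case and 1 to 2 lower, 1 to 2 other glucose metabolism genes higher, and 3 to 5 other hypoxia genes lower. Without control replicate 3 all tested genes gave 1113 higher and 917 lower, and 5 glycolysis genes were lower. Without control replicate 1 there were 1181 higher and 1130 lower, and without control replicate 2, 1125 lower. A single hypoxia gene was higher with a 5 TPM filter, median-of-ratios scaling, a pseudocount of 0.1 or a replicate block (1 in each), and 1 was lower with no filter or after rescaling without mitochondrial and abundant genes. With no filter 1 other glucose metabolism gene was higher. After rescaling 4 glycolysis genes were higher.

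The replicate number as a block gave 4 glycolysis genes higher and 11 lower. Of the deviations from group means, same-numbered libraries correlated at 0.198, 0.153 and -0.0384, so the numbers are not shown to pair the samples, and the block is a description only. Of the 14 called genes, 9 to 14 were still called under each of the 13 alternatives, 9 without control replicate 3 and 14 with a pseudocount of 5. In the 49 genes followed under the alternatives, no called gene changed sign. Abundances near 1 TPM (Egln3, Pfkfb4) are the least certain, and with 3 libraries a group the exact tests cannot pass 0.05.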
